A study of Homo sapiens with 9 samples.

Results

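Aminoacyl-tRNA synthetases are the enzymes that load each tRNA with its amino acid. The genes described here are 20 cytosolic and 16 mitochondrial synthetase genes. The rule takes them by gene symbol and uses no measured value, though it was set with earlier results of these data known. All 36 were found among the 32906 genes listed. Cells labelled Huh7, a human hepatocellular carcinoma cell line, were transfected with a control siRNA (Scramble) or with either of 2 siRNAs against KDM4C, a histone lysine demethylase. These are named Si-KDM4C#1 and Si-KDM4C#2. RNA was collected 48 hours after transfection, and 3 libraries were sequenced per group, 9 in all. All groups share the cell line, the medium and the transfection step, and differ in the siRNA alone as far as the labels say. The labels do not say whether the libraries of a group came from separate cultures, so every p-value measures the spread between these libraries, which may be technical.

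Each synthetase recognises its own amino acid and the matching tRNAs, and joins them in a reaction driven by ATP. Human cells run this step in the cytosol and again inside mitochondria, mostly with separate nuclear genes. The mitochondrial enzymes carry symbols that end in 2. GARS and KARS are the exceptions, since each gene encodes both the cytosolic and the mitochondrial enzyme. Several cytosolic synthetases are held together in a multisynthetase complex by scaffold proteins. Many cytosolic synthetase genes are known targets of ATF4, the transcription factor made when the eIF2 alpha kinases signal amino acid shortage or other stress, while the mitochondrial genes are less often named as such.

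KDM4C itself was lower in every knockdown library. It was at 4.88, 4.63 and 4.57 FPKM (fragments per kilobase of exon, scaled to the depth of the library) in Scramble, at 1.18, 1.10 and 1.13 FPKM with Si-KDM4C#1, and at 0.256, 0.349 and 0.256 FPKM with Si-KDM4C#2. The groups did not overlap, and Si-KDM4C#2 left less KDM4C than Si-KDM4C#1. Recovered depth ran from 14597502 to 18058557 fragments per library. In a library a synthetase gene was covered by 29 to 11689 fragments, and by at least 76 when SARS2 is set aside; for FARS2 no whole fragments were recovered. The 9 hepatocyte markers examined here were all under 1 FPKM in every library, with summed levels of 0.0347 to 0.433 FPKM and AFP, the fetal liver protein, at 0 in 8 of 9 libraries, so the markers of the labelled liver origin that were examined stood at or near 0; ALB, APOB and TTR were not analysed here. The highest of them was at 0.248 FPKM. Leukocyte and endothelial markers were also under 1 FPKM in every library. Of 4 fibroblast markers 2 were under 1 FPKM, COL1A1 was at 14.3 to 17.9 FPKM, and LUM was at 6.54 to 7.51 FPKM in Scramble, 2.89 to 3.93 FPKM with Si-KDM4C#1 and 5.36 to 6.61 FPKM with Si-KDM4C#2; the summed list was 18.3 to 24.4 FPKM. Of the epithelial list, KRT8 and KRT18 were at 95.5 FPKM or more in every library and CDH1 at or under 0.0322 FPKM. With Si-KDM4C#1, KRT8 was lower (−0.52 on the log2 scale) and KRT18 higher (0.21), and with Si-KDM4C#2 both were lower (−0.44 and −0.50). The summed level of that list was 329.8 to 352.9 FPKM in Scramble, 289.7 to 308.8 FPKM with Si-KDM4C#1 and 240.1 to 254 FPKM with Si-KDM4C#2. The part of these markers in the results below was not tested.

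The promoters are shown for the letters of the element that ATF4 binds together with a C/EBP partner, because the synthetases are best known as ATF4 targets. The letters TGATGNAA, and TTNCATCA for the same element read on the other strand, were searched in RefSeq promoter windows of 300 bases. Each window ran from 250 bases before to 50 after a RefSeq start (GRCh38.p14). Windows were found for 30 of the 36 genes. DARS, LARS, VARS, YARS, AARS2 and VARS2 had none. The letters occurred in 7 of 16 cytosolic genes with a window and in 1 of 14 mitochondrial genes, YARS2, against 4.46% of all 27305 genes with a window. In each stretch of 30 bases, printed 5′ to 3′ on the strand of the gene, the capitals mark the match.
MARS, chr12:57488053-57488082, plus strand: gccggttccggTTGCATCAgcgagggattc
AARS, chr16:70289675-70289704, minus strand: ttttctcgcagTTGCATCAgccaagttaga
CARS, chr11:3057407-3057436, minus strand: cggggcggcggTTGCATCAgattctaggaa
GARS, chr7:30594834-30594863, plus strand: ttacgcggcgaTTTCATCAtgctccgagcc
TARS, chr5:33440956-33440985, plus strand: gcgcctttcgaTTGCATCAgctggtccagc
IARS, chr9:92293692-92293721, minus strand: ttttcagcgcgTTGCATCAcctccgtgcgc
NARS, chr18:57621804-57621833, minus strand: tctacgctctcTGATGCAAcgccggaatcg
YARS2, chr12:32756076-32756105, minus strand: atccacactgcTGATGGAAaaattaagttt

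The match began 4 bases before the RefSeq start in MARS, 2 bases before it in CARS, 13 in IARS and 33 in GARS. The match began 2 bases after that start in TARS and 14 after it in NARS. In AARS and YARS2 it lay farther upstream, 187 and 197 bases before the start. A match describes the letters only, and a RefSeq start can lie inside the gene interval, as for MARS (chr12:57475445-57517569). The 7 cytosolic genes with a match did not move as 1 group: MARS, AARS, CARS, GARS and TARS rose with both siRNAs, NARS fell with Si-KDM4C#1, and IARS fell with Si-KDM4C#1 and rose with Si-KDM4C#2. HARS, SARS, EPRS and FARSA, which also rose with both, held no match in their windows.

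In Scramble, the cytosolic genes were expressed several fold above the mitochondrial ones. The median over genes of the mean FPKM, a level scaled to length, was 38.7 for the 20 cytosolic genes and 8.25 for the 16 mitochondrial genes. Cytosolic levels ran from 4.55 FPKM for CARS, the cysteinyl enzyme, to 99.2 FPKM for TARS, the threonyl enzyme. The highest gene of all was mitochondrial: IARS2, the mitochondrial isoleucyl enzyme, had a mean of 101.3 FPKM. Its Scramble libraries (98.4, 102.1 and 103.5 FPKM) overlapped those of TARS (96.8, 99.8 and 101.1 FPKM), so these neighbours in the order did not differ beyond their spread. No other mitochondrial gene was above 15.9 FPKM, the mean of HARS2. At the bottom stood SARS2, the mitochondrial seryl enzyme, at 0.943, 0.564 and 0.686 FPKM in Scramble. That is below the filter of a mean of 1 FPKM in at least 1 group, which the other 35 genes passed. SARS2 exons share 1492 bases, 46.2% of their length, with AC011455.2 on the same strand. Another 349 bases (10.8%) are shared with MRPS12 on the opposite strand. As the library kit named does not mark strand, reads from both stretches cannot be told apart, so its level is uncertain.

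**Figure D1:**
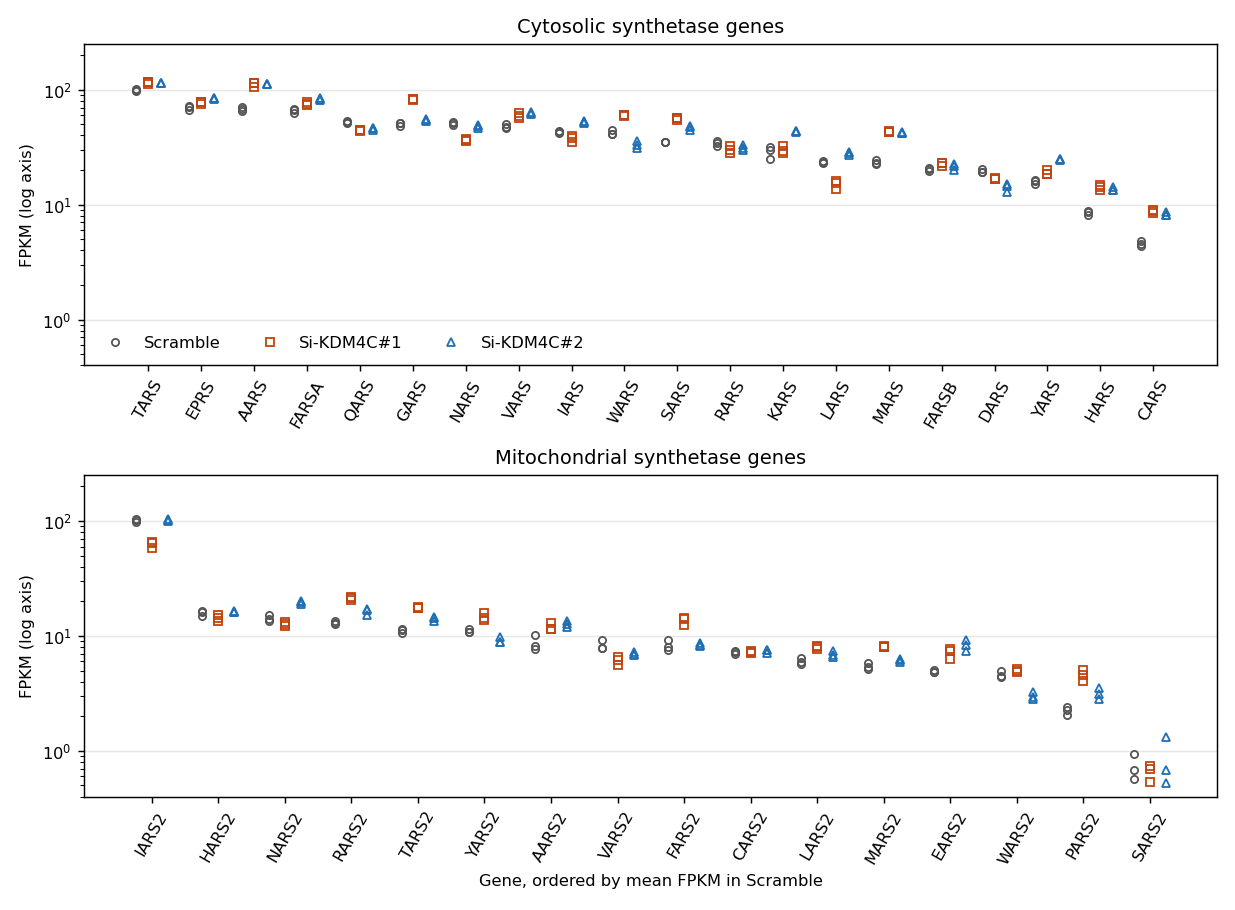
FPKM on a log axis of each cytosolic (top) and mitochondrial (bottom) synthetase gene in every library, with 3 points per group and genes in the order of their Scramble mean. IARS2 stands at 98.4 to 103.5 FPKM in Scramble, while the other mitochondrial genes have means of 15.9 FPKM or less.

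For 13 amino acids a single cytosolic gene can be set beside a single mitochondrial gene. In Scramble the mitochondrial gene was the higher of the pair in every library for 3 of them: cysteine, histidine and isoleucine. CARS was at 0.64, 0.60 and 0.64 times the level of CARS2, HARS at 0.53, 0.50 and 0.59 times that of HARS2, and IARS at 0.42, 0.43 and 0.42 times that of IARS2. At the other end of the order, the summed cytosolic level was 3.53 to 3.64 times the summed mitochondrial level, with IARS2 alone giving 43.8% to 46.5% of the latter.

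With each siRNA more synthetase genes rose than fell, in both compartments, and no gene changed past 2-fold. Here "rose" and "fell" mean an adjusted p under 0.05 in limma-trend on log2(FPKM + 1), with Benjamini-Hochberg adjustment over all 14363 genes that passed the filter. Fold changes are on that scale, which understates changes of low genes. With Si-KDM4C#1, 13 of the 20 cytosolic genes rose and 6 fell, and 9 of the 15 mitochondrial genes that passed the filter rose and 3 fell. Of all genes tested, 31.7% rose and 33.9% fell. The median log2 fold change was 0.21 for the cytosolic genes, 0.37 for the mitochondrial genes and −0.03 for all genes tested. Under quantile normalization the cytosolic median dropped to 0.02, with 9 genes higher and 6 lower, and the mitochondrial median was 0.39.

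With Si-KDM4C#2, 14 cytosolic genes rose and 3 fell, and 8 mitochondrial genes rose and 3 fell. Of all genes tested, 34.4% rose and 25% fell. The median log2 fold change was 0.28 for the cytosolic genes, 0.14 for the mitochondrial genes and 0.06 for all genes tested. Under quantile normalization the medians were 0.17 and 0.11. Both comparisons share the Scramble libraries, so they are not independent of each other. As these are bulk libraries, fewer cells of a kind and less RNA per cell cannot be told apart.

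A change of over 2-fold at FDR 0.05, the limits of the study, was reached by 0 of the 35 genes in each comparison, against 8.87% of all genes with Si-KDM4C#1 and 4.89% with Si-KDM4C#2. At an unadjusted p under 0.05, limma-trend gave 19 cytosolic and 13 mitochondrial genes with Si-KDM4C#1 (68.5% of all genes), and 17 cytosolic and 11 mitochondrial genes with Si-KDM4C#2 (63.4%). The count model, limma voom on recovered fragments, called 1 cytosolic gene, CARS at 1.02, and 1 mitochondrial gene, PARS2 at 1.10, with Si-KDM4C#1 and 0 of either with Si-KDM4C#2. At a limit of 1.5-fold, 6 cytosolic genes rose and 1 fell with Si-KDM4C#1 (13% and 15% of all genes), and 4 mitochondrial genes rose and 1 fell. With Si-KDM4C#2 the same limit gave 5 cytosolic genes and 1 mitochondrial gene that rose (11.6% of all genes) and 0 that fell (8.5%).

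**Figure D2:**
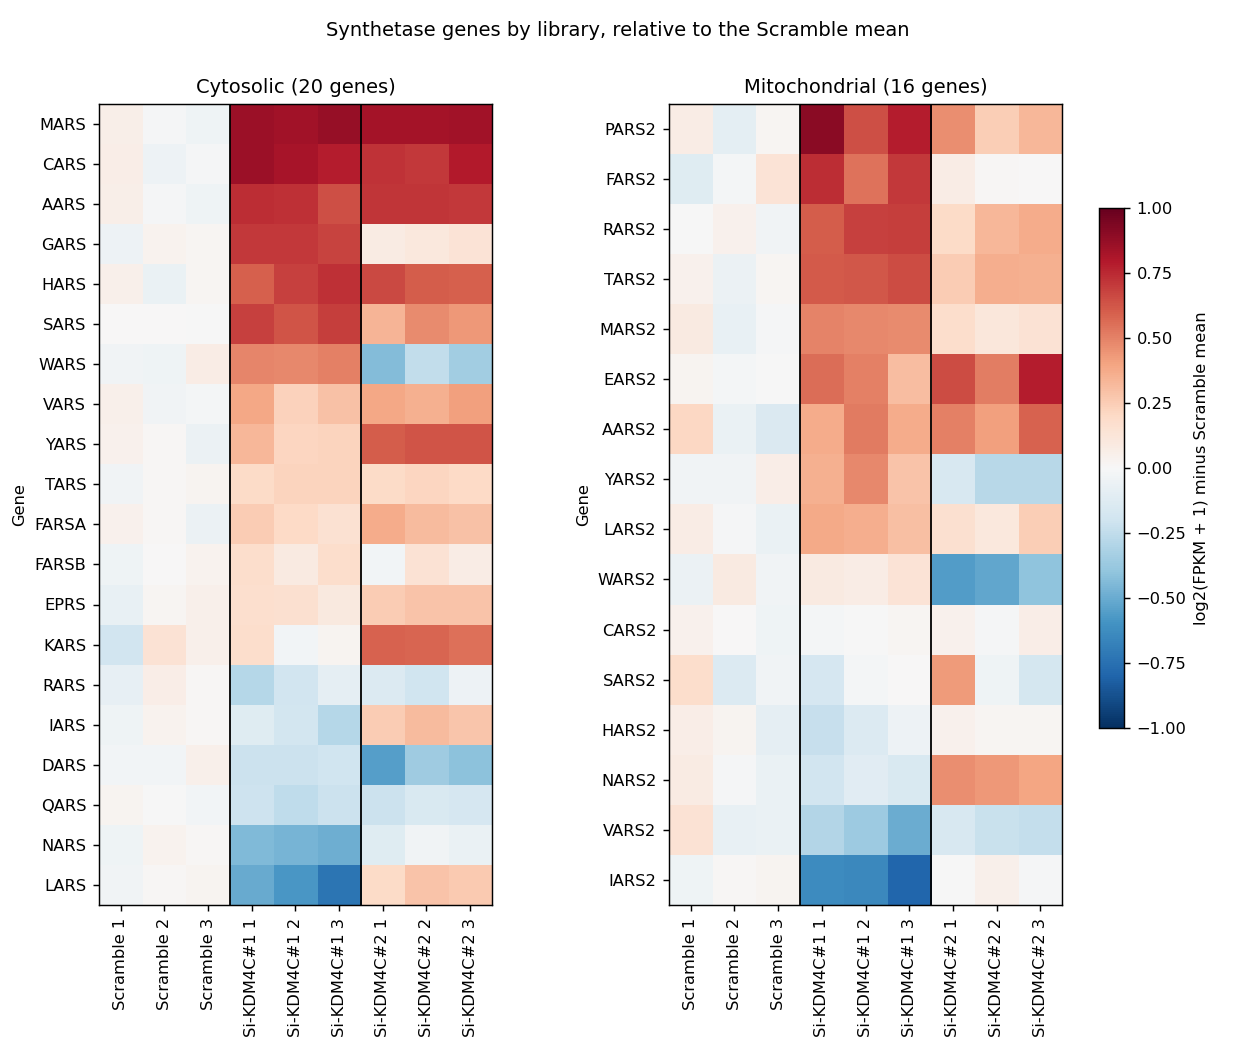
Each cell shows the log2(FPKM + 1) of a synthetase gene in 1 library minus its mean over the 3 Scramble libraries, red for higher and blue for lower, with genes ordered by their change with Si-KDM4C#1. MARS, CARS, AARS and HARS are red in all 6 knockdown libraries, and LARS, NARS and IARS2 are blue in the 3 Si-KDM4C#1 libraries.

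AARS, CARS, EPRS, FARSA, GARS, HARS, MARS, SARS, TARS, VARS and YARS rose with each siRNA. On the log2(FPKM + 1) scale the largest changes belonged to MARS, the methionyl enzyme that also loads the initiator tRNA. As a ratio of mean FPKM with Si-KDM4C#1 to Scramble, CARS (1.93) stood above MARS (1.85), and with Si-KDM4C#2 both were at 1.82. MARS was at 24.3, 23.2 and 22.6 FPKM in Scramble, at 43.1, 42.6 and 43.6 FPKM with Si-KDM4C#1 and at 42.4, 42.4 and 42.5 FPKM with Si-KDM4C#2. Every knockdown library lay far above every Scramble library, and both siRNAs gave nearly the same level. The log2 fold changes were 0.86 ± 0.034 (SE, limma-trend, adjusted p = 4.69e-08) and 0.84 ± 0.034 (adjusted p = 1.03e-07). MARS lies at chr12:57475445-57517569 on the plus strand of GRCh38, and its exons share 355 bases with DDIT3 and 519 bases with ARHGAP9 on the opposite strand. Since the library kit named does not mark strand, reads from these stretches cannot be told apart. They make up 5.1% and 7.4% of its exon length, and their part in the MARS level was not tested. DDIT3, a stress-induced transcription factor, rose with Si-KDM4C#1 by 1.03 on the log2 scale and stood at 0.20 with Si-KDM4C#2 (adjusted p = 0.234), and ARHGAP9 was at or under 0.0251 FPKM in every library.

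CARS, the lowest cytosolic gene, came close to a 2-fold rise. It was at 4.80, 4.34 and 4.5 FPKM in Scramble, at 9.04, 8.81 and 8.53 FPKM with Si-KDM4C#1 and at 8.14, 8.05 and 8.61 FPKM with Si-KDM4C#2. The knockdown libraries of both siRNAs lay apart from Scramble and overlapped each other. The log2 fold changes were 0.82 ± 0.050 (adjusted p = 5.01e-07) and 0.74 ± 0.050 (adjusted p = 1.74e-06). AARS, the alanyl enzyme, was among the most abundant genes and rose as well. It was at 70.7, 67.4 and 65.8 FPKM in Scramble, at 113.7, 113.4 and 106.6 FPKM with Si-KDM4C#1 and at 112, 111.9 and 111.8 FPKM with Si-KDM4C#2. The knockdown groups again overlapped each other and not Scramble. Its log2 fold changes were 0.70 ± 0.038 (adjusted p = 2.66e-07) and 0.71 ± 0.038 (adjusted p = 4.48e-07).

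HARS, the histidyl enzyme, rose from 8.85, 8.08 and 8.68 FPKM in Scramble to 13.4, 14.3 and 14.8 FPKM with Si-KDM4C#1 and 14.1, 13.5 and 13.4 FPKM with Si-KDM4C#2. Scramble lay below all 6. The log2 fold changes were 0.67 ± 0.050 (adjusted p = 2.11e-06) and 0.62 ± 0.050 (adjusted p = 5.63e-06), and the direct difference between the siRNAs was −0.05 (adjusted p = 0.429). SARS, the seryl enzyme, changed more under Si-KDM4C#1. It was at 34.9, 35.0 and 34.8 FPKM in Scramble, at 56.6, 54.5 and 56.9 FPKM with Si-KDM4C#1 and at 44.5, 48.8 and 47.5 FPKM with Si-KDM4C#2, and the 3 groups did not overlap. YARS, the tyrosyl enzyme, had the opposite order, with 16.3, 15.9 and 15.1 FPKM in Scramble, 20.1, 18.5 and 18.6 FPKM with Si-KDM4C#1 and 24.5, 24.9 and 24.9 FPKM with Si-KDM4C#2. Against Scramble the log2 fold changes were 0.67 and 0.42 for SARS and 0.26 and 0.62 for YARS. The difference of Si-KDM4C#2 from Si-KDM4C#1 was −0.25 ± 0.040 for SARS (adjusted p = 0.000399) and 0.36 ± 0.044 for YARS (adjusted p = 6.68e-05).

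The other genes that rose with both siRNAs moved little. VARS, the valyl enzyme, had log2 fold changes of 0.30 and 0.38. FARSA, the alpha subunit of the phenylalanyl enzyme, had 0.20 and 0.33, TARS 0.21 and 0.20, and EPRS, the joint glutamyl and prolyl enzyme, 0.14 and 0.27. These small changes were the ones most open to scaling: with Si-KDM4C#1, quantile normalization ended the calls of FARSA (0.00), TARS (0.04) and EPRS (−0.06). An adjustment for GC content ended both calls of VARS (0.07 and 0.10) and of FARSA (−0.03 and 0.04), the genes with the highest GC content of the cytosolic set (61.6% for FARSA). FARSB, the beta subunit, rose with Si-KDM4C#1 (0.15, adjusted p = 0.0243) and lost that call when any of 4 libraries was left out; with Si-KDM4C#2 it was at 0.06 (adjusted p = 0.3).

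GARS and KARS, the genes that serve cytosol and mitochondria alike, split between the siRNAs. GARS, the glycyl enzyme, was at 48.8, 51.8 and 51.4 FPKM in Scramble, at 83.5, 83.5 and 81.7 FPKM with Si-KDM4C#1 and at 53.7, 54.6 and 55.9 FPKM with Si-KDM4C#2. The latter lay just above Scramble. The log2 fold changes were 0.70 ± 0.034 (adjusted p = 1.38e-07) and 0.11 ± 0.034 (adjusted p = 0.019), the latter lost under quantile normalization (0.00), under voom (0.05) and without Scramble replicate 1 or Si-KDM4C#2 replicate 3. KARS, the lysyl enzyme, was at 25.1, 31.9 and 29.9 FPKM in Scramble and at 32.6, 28.3 and 29.4 FPKM with Si-KDM4C#1, where the libraries overlapped. With Si-KDM4C#2 it was at 43.9, 43.6 and 42.7 FPKM, above every other library, for a log2 fold change of 0.57 ± 0.081 (adjusted p = 0.000225). The direct difference between the siRNAs was −0.59 ± 0.034 for GARS (adjusted p = 5.09e-07) and 0.52 ± 0.081 for KARS (adjusted p = 0.000384).

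**Figure D3:**
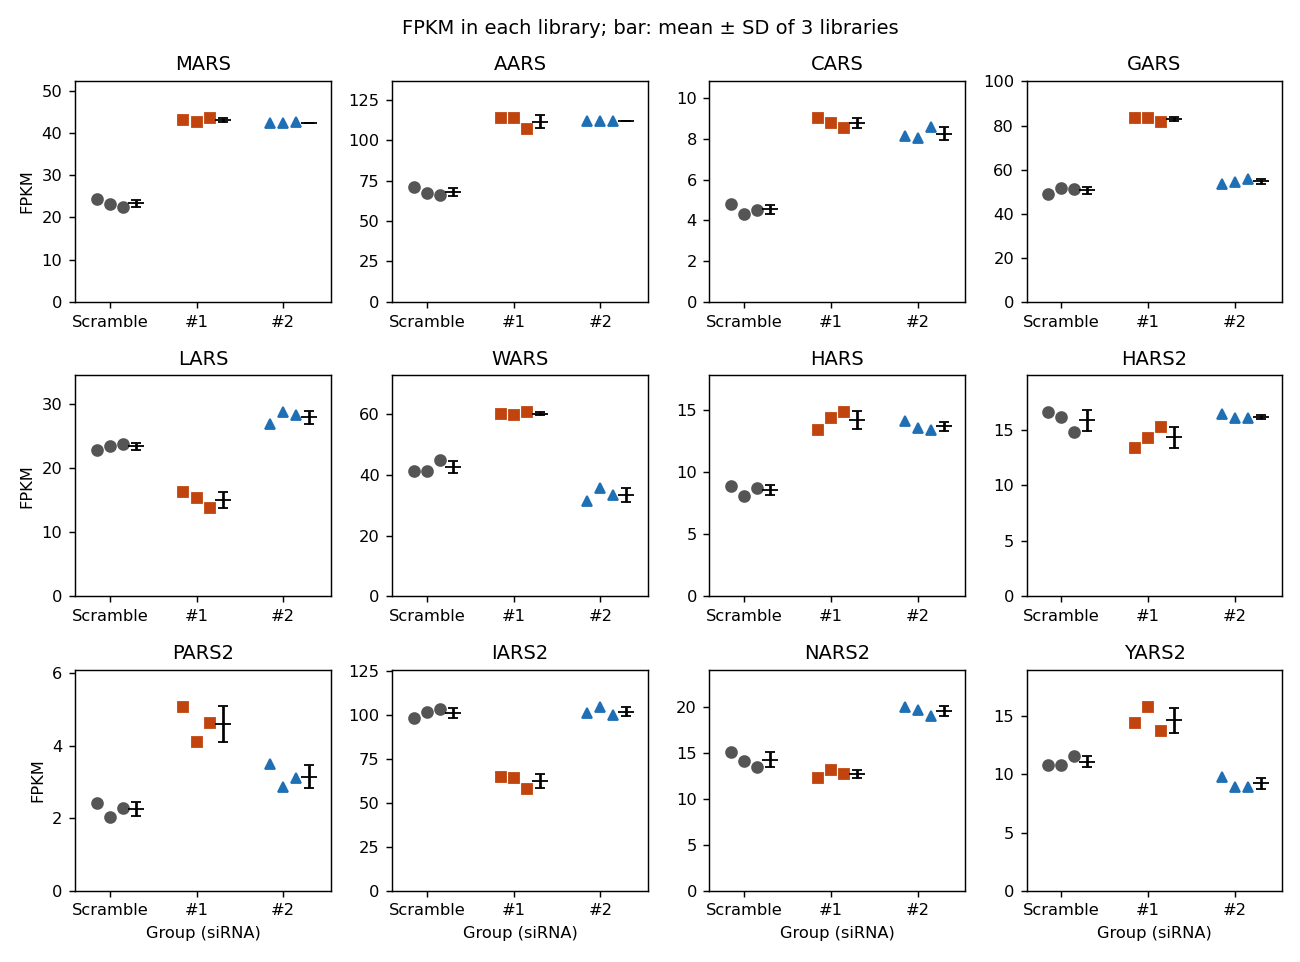
FPKM of 12 synthetase genes in every library (points, 3 per group) with the mean and SD of each group (black bar), each panel starting at 0. MARS, AARS, CARS and HARS sit above Scramble with both siRNAs, GARS with Si-KDM4C#1, and LARS, WARS, NARS2 and YARS2 lie on opposite sides of Scramble with the 2 siRNAs.

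More cytosolic genes fell with Si-KDM4C#1 (6) than with Si-KDM4C#2 (3), a contrast that depended on the setting. The counts were 6 and 5 under quantile normalization, 5 and 5 under voom, and 3 and 3 after the GC adjustment. LARS, the leucyl enzyme and a leucine sensor upstream of mTORC1, was at 22.8, 23.5 and 23.8 FPKM in Scramble, at 16.2, 15.3 and 13.7 FPKM with Si-KDM4C#1 and at 26.8, 28.7 and 28.2 FPKM with Si-KDM4C#2. It fell with Si-KDM4C#1 (−0.61 ± 0.057, adjusted p = 9.73e-06) and rose with Si-KDM4C#2 (0.24 ± 0.057, adjusted p = 0.0047), and the groups did not overlap. NARS, the asparaginyl enzyme, was at 49.1, 52.0 and 51.1 FPKM in Scramble and at 37.1, 36.5 and 35.8 FPKM with Si-KDM4C#1 (−0.47 ± 0.037, adjusted p = 2.83e-06). With Si-KDM4C#2 it was at 46.6, 49.5 and 48.4 FPKM, overlapping Scramble, and was called lower under quantile normalization (−0.18) and voom (−0.14) alone. IARS, the isoleucyl enzyme, had log2 fold changes of −0.20 and 0.28, and RARS, the arginyl enzyme, fell with Si-KDM4C#1 (−0.19, adjusted p = 0.022). That RARS call was lost without any of 4 libraries and under voom (−0.13, adjusted p = 0.0665). With Si-KDM4C#2, RARS was past the test under quantile normalization (−0.27, adjusted p = 0.00408) and voom (−0.20, adjusted p = 0.00727) but not by limma-trend without normalization. RARS (0.05) and DARS (0.03) turned positive under the GC adjustment, where IARS was at −0.01.

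DARS and QARS, the aspartyl and glutaminyl enzymes, were the cytosolic genes that fell with both siRNAs. DARS was at 19.2, 19.2 and 20.3 FPKM in Scramble, at 16.7, 16.7 and 16.9 FPKM with Si-KDM4C#1 and at 13.0, 15.1 and 14.5 FPKM with Si-KDM4C#2. QARS was at 53.0, 51.9 and 50.9 FPKM in Scramble, at 44.9, 43.3 and 44.5 FPKM with Si-KDM4C#1 and at 44.5, 46.5 and 46.2 FPKM with Si-KDM4C#2. Neither overlapped Scramble in any library, and the log2 fold changes were −0.21 and −0.44 for DARS and −0.23 and −0.18 for QARS.

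WARS, the tryptophanyl enzyme, which interferon induces, moved in opposite directions. It was at 41.3, 41.2 and 44.8 FPKM in Scramble, at 60, 59.5 and 60.5 FPKM with Si-KDM4C#1 and at 31.2, 35.6 and 33.2 FPKM with Si-KDM4C#2. The 3 groups lay apart, with log2 fold changes of 0.49 ± 0.052 (adjusted p = 2.11e-05) and −0.34 ± 0.052 (adjusted p = 0.000344). Both calls of WARS held under every alternative setting run here and without any single library.

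The enzymes of the multisynthetase complex differed in their counts from the free cytosolic enzymes with Si-KDM4C#1. Of the 8 complex enzymes (DARS, EPRS, IARS, KARS, LARS, MARS, QARS and RARS) 2 rose and 5 fell, with a median log2 fold change of −0.19, while of the other 12 cytosolic genes 11 rose and 1 fell, with a median of 0.40. Their median GC content was 42.8% and 50.3%, and after the GC adjustment the complex enzymes counted 2 higher and 2 lower with a median of 0.04, against 9 higher and 1 lower with 0.43. Under Si-KDM4C#2, 5 complex enzymes rose and 2 fell (median 0.26), and 9 of the others rose and 1 fell (median 0.36). The difference between these lists was not tested. The 3 scaffold genes did not follow the enzymes they hold with Si-KDM4C#1: AIMP1 (0.47), AIMP2 (0.34) and EEF1E1 (0.68) all rose. With Si-KDM4C#2, AIMP2 (0.61) and EEF1E1 (0.40) rose and AIMP1 was at 0.16 (adjusted p = 0.079). By the structural classes of the catalytic domain, 11 of 19 class I genes rose and 6 fell with Si-KDM4C#1, and 11 of 16 class II genes rose and 3 fell; with Si-KDM4C#2 the counts were 11 and 5, and 11 and 1. Of all genes tested, 31.7% rose and 33.9% fell with Si-KDM4C#1 and 34.4% rose and 25% fell with Si-KDM4C#2, so the share of class I genes that fell was near the background.

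**Figure D4:**
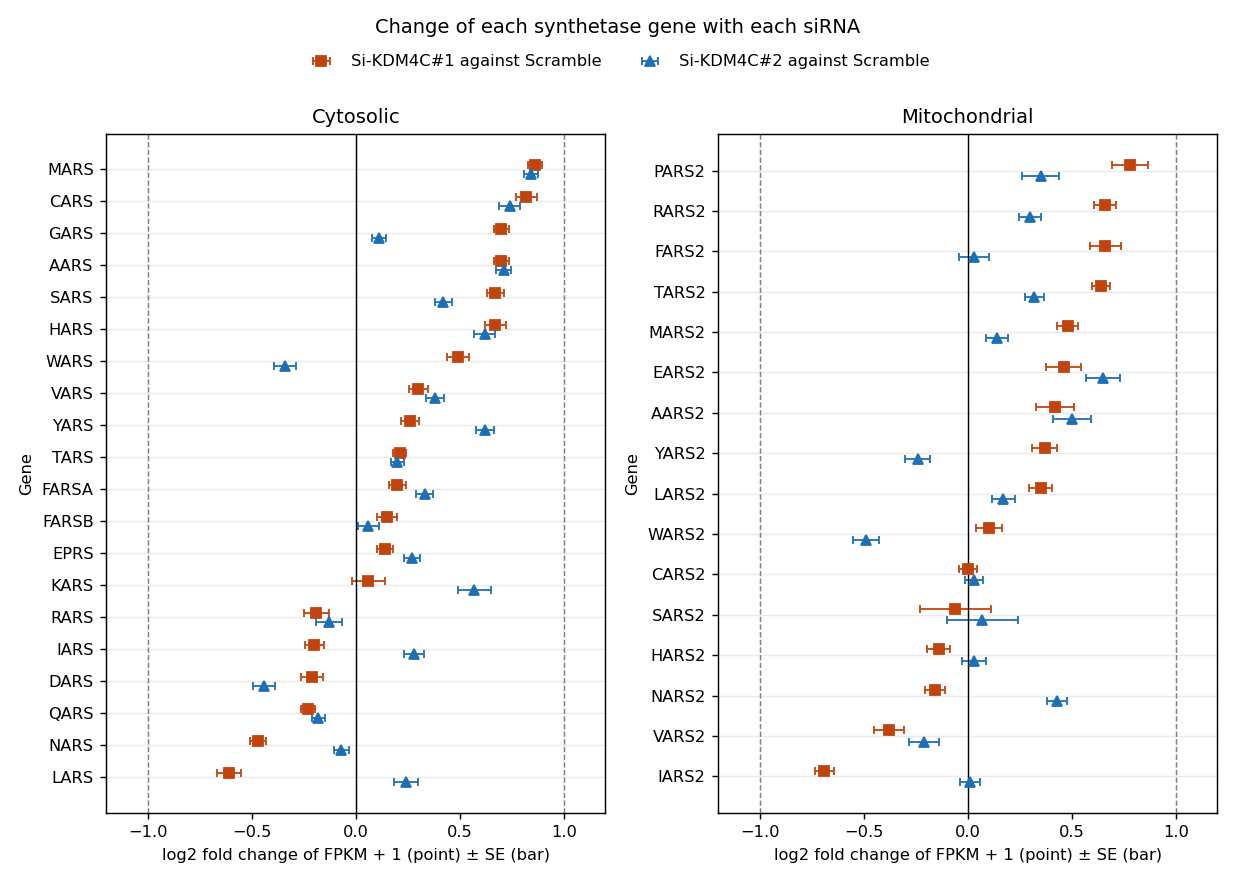
Log2 fold change (point) with its SE (bar) of each synthetase gene with Si-KDM4C#1 (squares) and Si-KDM4C#2 (triangles) against Scramble; dashed lines mark a 2-fold change. No gene reaches them, and the siRNAs lie on opposite sides of 0 past the test for IARS, LARS, WARS, NARS2 and YARS2.

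Among the mitochondrial genes, AARS2, EARS2, LARS2, MARS2, PARS2, RARS2 and TARS2 rose with each siRNA. The largest change was that of PARS2, the prolyl enzyme. PARS2 was at 2.43, 2.04 and 2.29 FPKM in Scramble, at 5.07, 4.09 and 4.61 FPKM with Si-KDM4C#1 and at 3.49, 2.85 and 3.10 FPKM with Si-KDM4C#2. The 3 groups did not overlap, and the ratio of the mean FPKM with Si-KDM4C#1 to that in Scramble was 2.04. On the log2(FPKM + 1) scale its fold changes were 0.78 ± 0.088 (adjusted p = 3.37e-05) and 0.35 ± 0.088 (adjusted p = 0.00683). RARS2, whose enzyme loads arginine in mitochondria, was at 13.0, 13.5 and 12.7 FPKM in Scramble, at 20.4, 21.6 and 21.7 FPKM with Si-KDM4C#1 and at 15.1, 16.7 and 17.2 FPKM with Si-KDM4C#2. TARS2, the threonyl enzyme, was at 11.4, 10.6 and 11.2 FPKM, at 17.5, 17.6 and 18.0 FPKM and at 13.4, 14.5 and 14.4 FPKM in the same groups. Both stood highest with Si-KDM4C#1, intermediate with Si-KDM4C#2 and lowest in Scramble, with log2 fold changes of 0.66 and 0.30 for RARS2 and of 0.64 and 0.32 for TARS2.

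EARS2, the glutamyl enzyme that also charges the glutamine tRNA in mitochondria, rose most with Si-KDM4C#2. It was at 5.04, 4.83 and 4.89 FPKM in Scramble, at 7.71, 7.38 and 6.32 FPKM with Si-KDM4C#1 and at 8.32, 7.45 and 9.18 FPKM with Si-KDM4C#2, for log2 fold changes of 0.46 ± 0.082 (adjusted p = 0.000785) and 0.65 ± 0.082 (adjusted p = 9.91e-05). The siRNAs overlapped each other (difference 0.19, adjusted p = 0.0623). AARS2, the alanyl enzyme, followed with 0.42 and 0.50. AARS2 was at 10.2, 8.25 and 7.77 FPKM in Scramble, at 11.5, 12.9 and 11.5 FPKM with Si-KDM4C#1 and at 12.7, 11.9 and 13.6 FPKM with Si-KDM4C#2. MARS2, the methionyl enzyme, had 0.48 and 0.14, and LARS2, the leucyl enzyme, 0.35 and 0.17. The changes of MARS2 and LARS2 with Si-KDM4C#2 lost significance when any of 4 libraries was left out and under quantile normalization (0.11 and 0.13). FARS2, the phenylalanyl enzyme, was at 7.49, 8.08 and 9.13 FPKM in Scramble and at 14.4, 12.4 and 14.0 FPKM with Si-KDM4C#1 (0.66 ± 0.074, adjusted p = 3e-05). With Si-KDM4C#2 it was at 8.70, 8.28 and 8.25 FPKM, inside the range of Scramble.

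IARS2 fell with Si-KDM4C#1 alone. From 98.4, 102.1 and 103.5 FPKM in Scramble it went to 65.1, 64.5 and 58.2 FPKM with Si-KDM4C#1, with no overlap, and was at 101.2, 104.9 and 100.3 FPKM with Si-KDM4C#2. The log2 fold change was −0.69 ± 0.047 (adjusted p = 1.07e-06) with Si-KDM4C#1 and 0.01 ± 0.047 (adjusted p = 0.843) with Si-KDM4C#2. IARS2 weighed heavily on the summed mitochondrial level. The sum over the 16 genes was 222.2 to 224.8 FPKM in Scramble, 210.4 to 218.9 FPKM with Si-KDM4C#1 and 241.2 to 241.8 FPKM with Si-KDM4C#2, while the share of IARS2 in it was 27.7% to 30% with Si-KDM4C#1 and 41.5% to 43.5% with Si-KDM4C#2. Without IARS2 the sum over the other genes was 119 to 126.4 FPKM in Scramble, 152.2 to 154.4 FPKM with Si-KDM4C#1 and 136.5 to 141.5 FPKM with Si-KDM4C#2. The summed cytosolic level was 793.6 to 809.4 FPKM in Scramble, 944 to 970.5 FPKM with Si-KDM4C#1 and 952.4 to 973.2 FPKM with Si-KDM4C#2. The ratio of the sums was highest with Si-KDM4C#1, at 4.34 to 4.49, against 3.95 to 4.03 with Si-KDM4C#2 and 3.53 to 3.64 in Scramble. This order depended on IARS2. Without it the mitochondrial sum was highest with Si-KDM4C#1, while the cytosolic sums of both siRNAs overlapped. The ratio without IARS2 was thus not highest with Si-KDM4C#1.

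NARS2 and YARS2, the mitochondrial asparaginyl and tyrosyl enzymes, moved in opposite directions with the siRNAs. NARS2 was at 15.1, 14.1 and 13.5 FPKM in Scramble, at 12.3, 13.1 and 12.7 FPKM with Si-KDM4C#1 (−0.16 ± 0.048, adjusted p = 0.0171) and at 20, 19.6 and 19.0 FPKM with Si-KDM4C#2 (0.43 ± 0.048, adjusted p = 4.76e-05). YARS2 was at 10.8, 10.8 and 11.6 FPKM in Scramble, at 14.4, 15.8 and 13.7 FPKM with Si-KDM4C#1 (0.37 ± 0.060, adjusted p = 0.00038) and at 9.77, 8.93 and 8.93 FPKM with Si-KDM4C#2 (−0.24 ± 0.060, adjusted p = 0.00704). The groups of neither gene overlapped. The smaller change of NARS2, with Si-KDM4C#1, was lost under TPM scaling (−0.13), under voom (−0.10) and without Scramble replicate 1 or Si-KDM4C#1 replicate 1, and was 0.04 after the GC adjustment.

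WARS2, the mitochondrial tryptophanyl enzyme, fell with Si-KDM4C#2. It was at 4.39, 4.97 and 4.49 FPKM in Scramble, at 4.97, 4.90 and 5.16 FPKM with Si-KDM4C#1 and at 2.82, 2.92 and 3.25 FPKM with Si-KDM4C#2, where the log2 fold change was −0.49 ± 0.063 (adjusted p = 0.00011). VARS2, the valyl enzyme, fell with both siRNAs (−0.38 and −0.21), but its exons share 1858 bases, 22% of their length, with GTF2H4 on the same strand, a gene at or under 0.329 FPKM here. The VARS2 call with Si-KDM4C#2 was lost under TPM scaling (−0.18, adjusted p = 0.113), with no filter on low values (adjusted p = 0.081) and without any of 3 libraries. CARS2, the cysteinyl enzyme, was at 7.0 to 7.60 FPKM over all 9 libraries. HARS2 was at 16.6, 16.2 and 14.8 FPKM in Scramble, at 13.4, 14.3 and 15.3 FPKM with Si-KDM4C#1 and at 16.4, 16.1 and 16.1 FPKM with Si-KDM4C#2. Both siRNA groups of HARS2 overlapped Scramble, with log2 fold changes of −0.14 and 0.03. SARS2, which did not pass the filter, was at 0.531 to 0.732 FPKM with Si-KDM4C#1 and at 1.32, 0.676 and 0.526 FPKM with Si-KDM4C#2, overlapping Scramble.

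The balance between the enzymes of a pair moved in both directions. The ratio of CARS to CARS2 went from 0.60 to 0.64 in Scramble to 1.16 to 1.27 with Si-KDM4C#1 and 1.09 to 1.13 with Si-KDM4C#2. HARS and HARS2 are neighbours on chromosome 5, transcribed away from each other, with 437 shared exon bases at their starts, which is 11.7% of the exon length of HARS2. Their ratio went from 0.50 to 0.59 in Scramble to 0.97 to 1.00 with Si-KDM4C#1 and 0.83 to 0.86 with Si-KDM4C#2. For leucine, arginine, threonine and asparagine the ratio was lower with Si-KDM4C#1 in every library. LARS to LARS2 went from 3.56 to 4.16 down to 1.79 to 1.98, and RARS to RARS2 from 2.5 to 2.71 down to 1.37 to 1.48. TARS to TARS2 went from 8.52 to 9.43 down to 6.42 to 6.58, and NARS to NARS2 from 3.24 to 3.78 down to 2.77 to 3.02. More pairs had a higher ratio: beside cysteine and histidine, it was higher without overlap for alanine, isoleucine, methionine, serine, valine and tryptophan. Arginine, threonine and asparagine were also lower without overlap with Si-KDM4C#2, while isoleucine, methionine, valine and tryptophan were higher. With Si-KDM4C#2 the ratio of YARS to YARS2 was 2.5 to 2.79, against 1.31 to 1.51 in Scramble. The mitochondrial gene was the higher in every library for 1 pair with Si-KDM4C#1 and for 2 pairs with Si-KDM4C#2.

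Set directly against each other, the siRNAs differed in many of the genes, as they did over all genes tested. The cytosolic counts lay near the background, while more mitochondrial genes were lower than higher. With Si-KDM4C#2 relative to Si-KDM4C#1, 7 cytosolic genes were higher and 4 lower, while 3 mitochondrial genes were higher and 8 lower, against 35.9% higher and 26.5% lower of all genes tested. The medians were 0.03 and −0.18, and 0.08 for all genes tested. Under voom the cytosolic genes counted 5 higher and 10 lower (median −0.10), and after the GC adjustment 5 higher and 7 lower (median −0.04). In both settings each compartment then held more lower than higher genes. The difference between the compartments was not tested. Past 2-fold there was again 0 of 35, against 6.91% of all genes; at an unadjusted p under 0.05 limma-trend gave 11 cytosolic and 13 mitochondrial genes (66.1% of all genes). The largest differences were 0.85 ± 0.057 for LARS (adjusted p = 1.31e-06), −0.83 ± 0.052 for WARS (adjusted p = 8.12e-07), 0.70 ± 0.047 for IARS2 (adjusted p = 1.27e-06) and −0.63 ± 0.074 for FARS2 (adjusted p = 4.92e-05). MARS, CARS, AARS and HARS, which had changed alike against Scramble, were at −0.02, −0.08, 0.01 and −0.05 in this comparison, with adjusted p from 0.187 to 0.845. Voom put all 4 lower with Si-KDM4C#2, at −0.12 to −0.22, while quantile normalization put MARS at 0.05.

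The 12 cytosolic synthetases known from the literature as ATF4-responsive (AARS, CARS, EPRS, GARS, IARS, LARS, MARS, NARS, SARS, TARS, WARS and YARS) gave 9 that rose and 3 that fell with Si-KDM4C#1, and for Si-KDM4C#2 these counts were 10 and 1. The other 8 cytosolic genes gave 4 and 3, and 4 and 2. The medians were 0.37 and 0.28 for the 12 and 0.10 and 0.20 for the 8. Over all genes 31.7% rose and 33.9% fell with Si-KDM4C#1, while 34.4% rose and 25% fell with Si-KDM4C#2; the counts of the 8 lay nearer to the background than those of the 12. The further ATF4 response was read on 20 genes for the factor itself, its partners and its targets in amino acid supply, of which 19 passed the filter.

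These genes rose nearly all with Si-KDM4C#1 and went both ways with Si-KDM4C#2. With Si-KDM4C#1, 18 of the 19 genes rose and 1, VLDLR, fell, 11 rose past 2-fold (4.04% of all genes tested) and VLDLR fell past it (4.83%), with a median log2 fold change of 1.03. With Si-KDM4C#2, 9 rose and 5 fell, 6 rose past 2-fold (2.6%) and 1 fell past it (2.3%), with a median of 0.15. Smaller calls depended on the setting. The rises of CEBPB and DDIT4 with Si-KDM4C#1 were lost under quantile normalization and after the GC adjustment, where 16 rose in each. The falls of DDIT4 (−0.19) and SLC7A5 (−0.14) with Si-KDM4C#2 were lost under TPM scaling. That setting gave 10 higher and 3 lower, against 8 and 7 after the GC adjustment. ATF4 mRNA was at 65.1, 68.1 and 70.1 FPKM in Scramble, at 170.6, 172.8 and 180.9 FPKM with Si-KDM4C#1 and at 136.2, 141.2 and 141.4 FPKM with Si-KDM4C#2 (1.35 and 1.03). The largest changes with Si-KDM4C#1 were those of TRIB3 (2.47, with 1.93 for Si-KDM4C#2), a pseudokinase that feeds back on ATF4, PSAT1 (2.09 and 1.60) of serine synthesis, PCK2 (2.07 and 1.93), the mitochondrial PEP carboxykinase, and CHAC1 (1.98 and 0.56), which degrades glutathione. All 4 rose with both siRNAs, but CHAC1 with Si-KDM4C#2 was at 0.24 (adjusted p = 0.0732) after the GC adjustment. The siRNAs parted on SHMT2, which makes glycine from serine in mitochondria (0.54 and −1.34), and on EIF4EBP1, the translation repressor (1.15 and −0.45), both past the test each way.

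**Figure D5:**
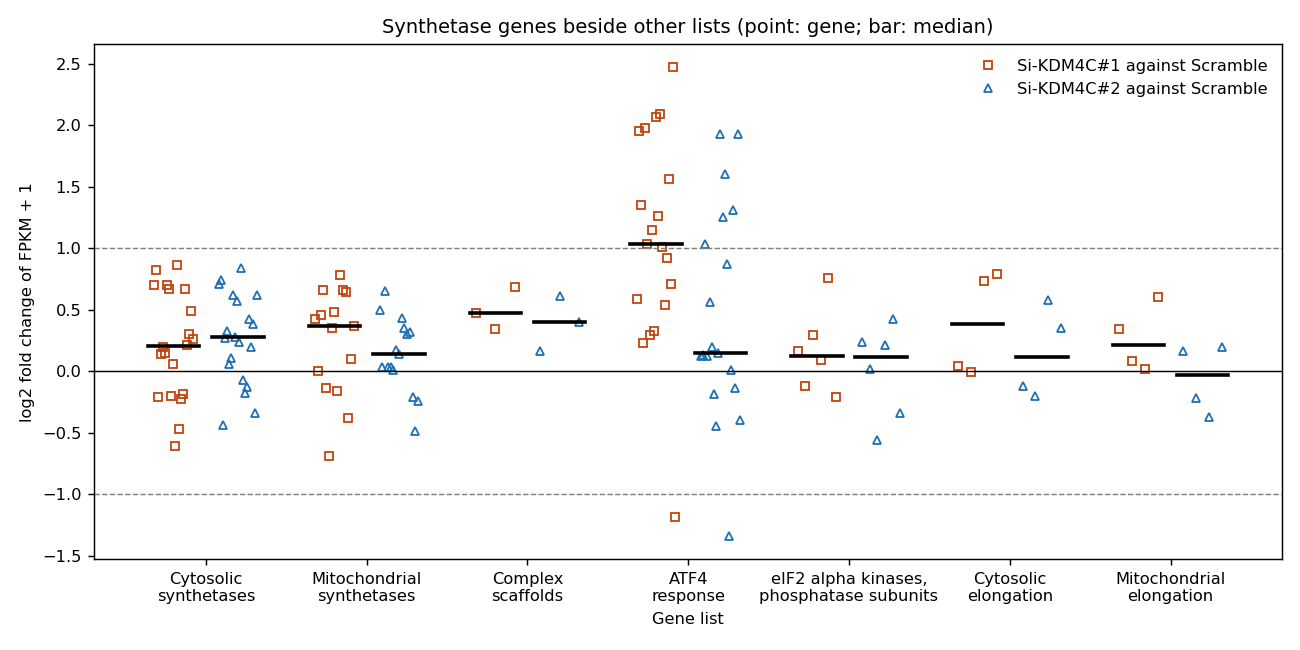
Log2 fold change of each gene that passed the filter (points) with each siRNA against Scramble, for the synthetase genes and 5 other lists, with black bars at the medians and dashed lines at 2-fold. The ATF4 response reaches 2.47 and its median is 1.03 with Si-KDM4C#1 and 0.15 with Si-KDM4C#2, while the synthetase genes lie within 2-fold.

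Of the 6 eIF2 alpha kinase and phosphatase genes, 3 rose and 2 fell with each siRNA, which with so few genes is near the background of 31.7% and 33.9% with Si-KDM4C#1 and of 34.4% and 25% with Si-KDM4C#2; the same shares apply to the short lists that follow. PPP1R15A, the inducible phosphatase subunit that ATF4 activates, rose with both (0.76 and 0.42), and PPP1R15B, its constitutive counterpart, fell with both (−0.21 and −0.34), the first call being lost after the GC adjustment (−0.04). EIF2AK3, which encodes the endoplasmic reticulum kinase PERK, rose with Si-KDM4C#1 (0.29) and fell with Si-KDM4C#2 (−0.56). EIF2AK4, which encodes GCN2, the kinase that senses uncharged tRNA, was at 0.09 (adjusted p = 0.17) and rose by 0.21. The factors that use the charged tRNAs moved in part. Of 4 cytosolic elongation factors 2 rose with Si-KDM4C#1, EEF2 (0.79) and EEF1D (0.73), and the same genes rose with Si-KDM4C#2 (0.35 and 0.58) while EEF1A1 (−0.12) and EEF1B2 (−0.20) fell. Of 4 mitochondrial factors, TUFM (0.60 and 0.20) and GFM1 (0.34 and 0.16) rose with both siRNAs, and TSFM (−0.37) and GFM2 (−0.22) fell with Si-KDM4C#2. Several of these smaller calls with Si-KDM4C#2 were lost under other settings: TUFM was at 0.03 under quantile normalization and −0.02 after the GC adjustment, GFM1 at 0.07 under quantile normalization, GFM2 at −0.15 and EEF1A1 at −0.09 after the GC adjustment. Of 4 genes of mitochondrial transamidation and formylation, 1 rose and 1 fell with Si-KDM4C#1, and 2 rose and 2 fell with Si-KDM4C#2. QRSL1, a subunit that converts the charged glutamine tRNA, fell with both (−0.51 and −0.21, the latter −0.13 with adjusted p = 0.0534 after the GC adjustment). MTFMT, which formylates the initiator tRNA loaded by MARS2, rose with both (0.38 and 0.63). With Si-KDM4C#2, GATC fell (−0.59) and GATB rose (0.29). With Si-KDM4C#1 these 2 were at −0.10 and 0.04, not past the test.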

How the data were processed

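RNA sequencing gave 9 libraries labelled Huh7, 3 each for Scramble, Si-KDM4C#1 and Si-KDM4C#2, with groups taken from the sample titles. What the authors deposited is a list of FPKM per library. Per the labels, the submitters' processing notes name FastQC 0.11.5, HISAT2 2.1.0, StringTie 1.3.3b, featureCounts and DESeq 1.28.0, and the build GRCh38; no scaling step between libraries is given in the sources used here. Multiplied by GENCODE 29 exon lengths and a fitted total, 97.54% to 97.69% of values above 0 were whole fragments (within 0.05).

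Genes whose group mean reached 1 FPKM in any group were compared in limma 3.58.1 (R 4.3.3) by limma-trend on log2(FPKM + 1), all 9 libraries in 1 fit without covariates, with Benjamini-Hochberg adjustment. The script was tested on simulated data with 200 changed genes. SARS2, below the filter, was fitted without a filter. The study's limits are FDR 0.05 and a 2-fold change. Tables and plots used Python 3.11.15, pandas 2.3.3, numpy 2.4.6 and matplotlib 3.10.9.

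The genes and lists were chosen with earlier results of these data known. By the rule used, full values are given for the 8 cytosolic and 8 mitochondrial genes with the largest changes, GARS, KARS, HARS, HARS2 and KDM4C, and in other lists for up to 4 genes with the largest change. Further synthetase genes given in full, genes that overlap a synthetase, VLDLR, SHMT2, EIF4EBP1, CEBPB, DDIT4, SLC7A5 and the ATF4 level were added after their values were seen. Quantile normalization, TPM scaling, other pseudocounts, filters, limits and sample sets, leaving out each library, limma voom on recovered fragments and a GC adjustment were tried.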

Additional observations from a re-analysis of the deposited data

Results flagged for a closer look

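For 5 synthetase genes the siRNAs moved the level in opposite directions, each past the test, and the direct difference between the siRNAs was past the test as well. Given as Si-KDM4C#2 minus Si-KDM4C#1 on the log2(FPKM + 1) scale, in limma-trend with Benjamini-Hochberg adjustment, the difference was 0.85 for LARS (adjusted p = 1.31e-06), 0.48 for IARS (adjusted p = 1.57e-05), −0.83 for WARS (adjusted p = 8.12e-07), 0.59 for NARS2 (adjusted p = 4.91e-06) and −0.61 for YARS2 (adjusted p = 1.57e-05). In all 5 the 3 libraries of either siRNA lay on their own side of the 3 Scramble libraries. These differences ranged over the alternative settings from 0.71 to 0.90 for LARS, from 0.35 to 0.55 for IARS, from −0.98 to −0.77 for WARS, from 0.46 to 0.62 for NARS2 and from −0.79 to −0.56 for YARS2. The opposite calls against Scramble were less firm for 3 genes. IARS with Si-KDM4C#1 was at −0.01 after the GC adjustment, NARS2 with Si-KDM4C#1 was at 0.04 there, and LARS with Si-KDM4C#2 was at 0.11 (adjusted p = 0.124) under quantile normalization. KDM4C itself was lower with Si-KDM4C#2 than with Si-KDM4C#1 (−0.73, adjusted p = 2.4e-05), and its part in these differences was not tested.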

How the results depend on the processing

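Under the limits of FDR 0.05 and 2-fold, every alternative with those limits other than voom gave 0 synthetase genes in each comparison, and an FDR of 0.01 did too. Without a fold limit the counts for Si-KDM4C#1 against Scramble, Si-KDM4C#2 against Scramble and Si-KDM4C#2 against Si-KDM4C#1 were 19, 17 and 11 cytosolic and 12, 11 and 11 mitochondrial genes. At 1.5-fold they were 7, 5 and 3 cytosolic and 5, 1 and 5 mitochondrial genes. The voom fit on recovered fragments and the GC adjustment were added after seeing the data; voom called 1 cytosolic and 1 mitochondrial gene in the first comparison, and counted SARS2 in place of FARS2. Depth limits SARS2 and PARS2 most, and exon overlaps limit SARS2 as well.

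Median log2 fold changes moved with the scaling. In the first comparison the cytosolic median was 0.02 under quantile normalization, 0.24 under TPM scaling, 0.27 under voom and 0.30 after the GC adjustment, with 3 cytosolic genes lower in the last, and the mitochondrial median was 0.46 under voom. In the second, the cytosolic median was 0.17 under quantile normalization, 0.32 under TPM scaling and 0.22 under voom, and 0.25 to 0.29 when a library was left out, 0.25 being without Scramble replicate 1; 5 cytosolic genes were lower under quantile normalization and 5 under voom. In the third, the cytosolic median was 0.09 under quantile normalization, −0.10 under voom and −0.04 after the GC adjustment, with 10 genes lower under voom and 7 after the GC adjustment. The mitochondrial median there was −0.26 under quantile normalization, −0.07 without a filter and −0.09 under voom.

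Changes of sign, all of small values, were these; apart from the settings themselves the cause was not tested. In the first comparison, quantile normalization gave −0.06 for EPRS, −0.01 for FARSB, −0.12 for KARS and 0.03 for CARS2, TPM scaling 0.03 and voom 0.06 for CARS2, and the GC adjustment 0.03 for DARS, −0.03 for FARSA, 0.05 for RARS and 0.04 for NARS2. In the second, quantile normalization gave −0.06 for FARSB, −0.03 for CARS2, −0.04 for FARS2, −0.07 for HARS2 and −0.07 for IARS2, voom −0.03 for CARS2, −0.03 for HARS2 and −0.05 for IARS2, and the GC adjustment −0.13 for CARS2, −0.08 for FARS2 and −0.01 for HARS2. In the third, quantile normalization gave 0.05 for MARS, 0.07 for TARS and −0.06 for CARS2. Voom gave −0.12 for AARS, −0.00 for FARSA, −0.08 for QARS, −0.07 for RARS, −0.05 for VARS, −0.03 for AARS2 and −0.09 for CARS2, and the GC adjustment −0.03 for AARS, −0.09 for RARS and −0.00 for CARS2. Leaving out 1 library changed the sign of KARS (−0.04 to 0.13) and CARS2 (−0.02 to 0.02) in the first comparison, of FARS2 (−0.03 to 0.10), HARS2 (−0.02 to 0.06) and IARS2 (−0.01 to 0.03) in the second and of AARS (−0.02 to 0.03) in the third.

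Same-numbered libraries hardly deviated together (mean correlation 0.016 over 9 pairs, against −0.008 over 18 other pairs). Deviations were taken from each group's own mean and cancel within it, so the value of the other pairs is no independent reference. The same-numbered pairs that include Scramble were all positive (0.011 to 0.055), and those between the siRNAs ran from −0.046 to 0.027. Such small values cannot decide whether the numbers pair the samples. With the replicate block all counts past 2-fold were 0 as without it. It ended the call of HARS2 in the third comparison (0.17, adjusted p = 0.0524) and added that of VARS2 (0.18, adjusted p = 0.0214).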
